A study of Mus musculus with 4 samples.

Results

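The genes described here encode monocarboxylate transporters of the Slc16a family and their membrane chaperones, in C2C12 cells, a mouse myoblast line. They are Slc16a1, Slc16a3, Slc16a6, Slc16a7, Slc16a10, Slc16a13, basigin (Bsg) and embigin (Emb). Every probe set that the array annotation gives to exactly 1 of these 8 genes was taken, which made 14 probe sets of the 34945 that name a single gene, or 8 of 18193 genes. The genes were proposed with results of the same comparison of knockdown and control known, so their differences and calls are a description, and no call is independent evidence about the family.

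Each of 4 cultures was measured on 1 Affymetrix array. The pLKO.1 lentiviral vector was stably present in all of them, and they were grown as myoblasts in medium with 20% serum and 2 ug/ml puromycin. In the 2 control cultures the vector expressed a hairpin that the labels call scrambled in 1 field and directed at luciferase in another, and in the 2 knockdown cultures it expressed an shRNA against Sfmbt1, the gene of an MBT repeat protein of chromatin. The series text calls the cultures independently grown. Whether they came from separate transductions, or from more than 1 hairpin, the sources used here do not say, so the p-values concern these cultures only. The variance behind them is drawn mostly from other probe sets of like level, with 2 residual and 9.60 prior degrees of freedom. The comparison asks which RNA levels depend on Sfmbt1 in these myoblasts.

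Monocarboxylate transporters move lactate, pyruvate and ketone bodies across the plasma membrane together with a proton, down the combined gradient of both. Several of them reach the cell surface only in a complex with basigin or embigin, single-pass glycoproteins of the immunoglobulin superfamily. In skeletal muscle, Slc16a1 (MCT1) is associated with lactate uptake by oxidative fibres and Slc16a3 (MCT4) with lactate export from glycolytic fibres.

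Values are MAS5 signals, linear intensities that the authors deposited and that are not comparable between probe sets. Each array's background limit, the 95th percentile over its 27 bacterial controls, lay between 42.9 and 69.3; knockdown replicate 1 had the highest limit and the lowest share of probe sets above it (56.2%, against 64.3% to 67.6% on the other arrays). Differences are knockdown minus control on the scale of log2(signal + 16), which understates the change of dim probe sets. They were tested with limma over the 22893 single-gene probe sets in the upper 60% of mean level, and a probe set was called where the Benjamini-Hochberg adjusted p was under 0.05. The number of arrays limits the precision. A single probe set compared by an exact permutation test of 2 against 2 arrays cannot give a two-sided p under 0.333.

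All 5 probe sets of the targeted gene were lower in the knockdown. Probe set 1422894 of Sfmbt1 read 241.7 and 277.9 with the control hairpin, and the knockdown arrays gave 74.6 and 16 (adjusted p = 0.0219 in limma). The 16 lay under the background limit of its array (42.9) and the 74.6 just over its own (69.3). The size of this fall is therefore a bound, at least 4.58-fold. Of its other probe sets, 3 stood at 43.7% to 69.2% of the control and were not called, and the fifth was in the background range on all 4 arrays. The myoblast markers Myod1, Myf5, Des, Cdh15 and Itga7 were above background on all arrays in 6 of their 7 probe sets. Of the 6 tested 0 were called, beside 2.39% of all probe sets tested. Their median difference was -0.20 log2 units, and 1 of the 6 was positive.

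Slc16a1 was the 1 member called, and it was lower in the knockdown, at 40.7% of the control signal. Of the 7 member probe sets tested, 1 was lower and 0 were higher, against 1.43% lower and 0.961% higher among all probe sets tested. The median difference of the 7 was 0.01 log2 units, beside -0.01 over all probe sets tested. The arrays of the 2 groups did not overlap in 5 of the 7, beside 45.6% of all probe sets tested. Bsg and both tested probe sets of Emb had positive differences, Slc16a3 and Slc16a13 negative ones, and none of these was called.

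**Figure D1:**
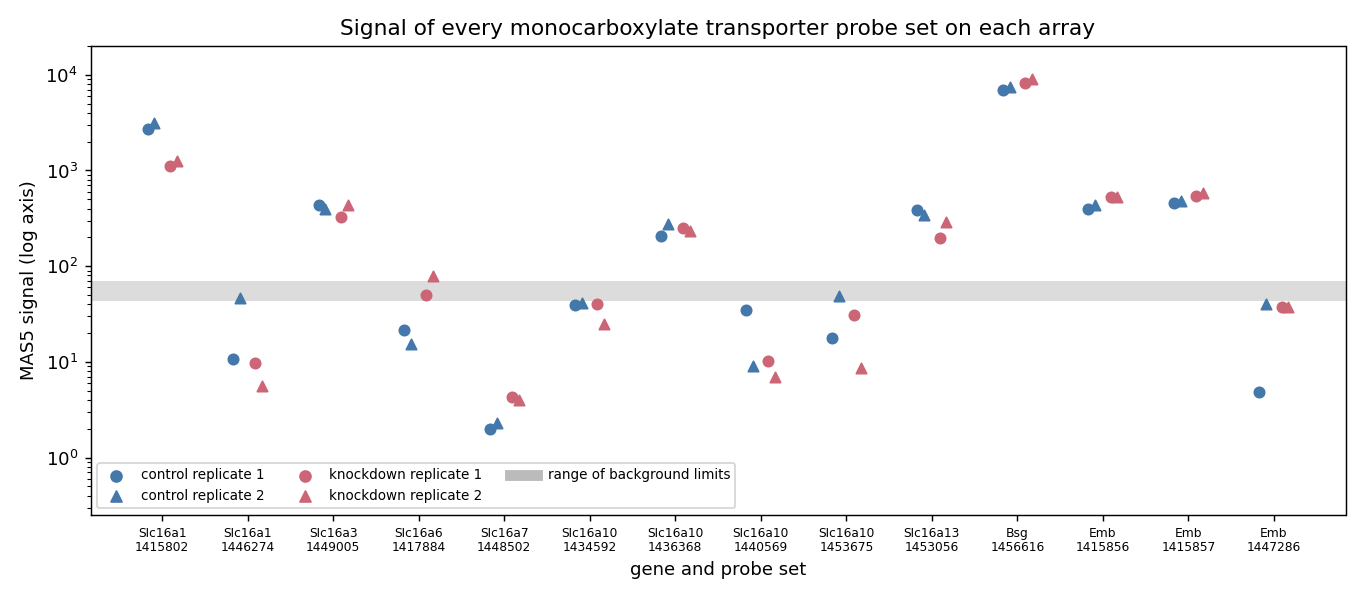
The MAS5 signal (vertical log axis) of each of the 14 member probe sets is plotted for each of the 4 arrays, with blue for control, red for knockdown, circles for replicate 1 and triangles for replicate 2. The grey band spans the background limits of the 4 arrays, and 7 probe sets lie above it on every array, with Slc16a1 (1415802) the one whose 2 groups stand farthest apart among them.

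In Slc16a1, the proton-coupled lactate and pyruvate carrier, probe set 1415802 read 2691.3 and 3118.8 with the control hairpin and 1111.7 and 1255.4 with the Sfmbt1 hairpin. All 4 values were well above background and the groups did not overlap: every pairing of a knockdown with a control array put the knockdown at 35.6% to 46.6% of the control. The means were 2905 ± 302 and 1184 ± 102 (SD, n = 2 each), a log2 difference of -1.28 (SE 0.13, 95% interval -1.58 to -0.99), or 2.43-fold lower (limma adjusted p = 8.27e-04). By p this probe set ranked 21 of 22893, and its absolute difference was larger than that of 98.9% of them. Within each group the 2 arrays differed by 0.21 log2 units in the control and 0.17 in the knockdown. The other probe set of Slc16a1, 1446274, was in the background range on all arrays (10.8 and 46.5 in the control, 9.7 and 5.6 in the knockdown) and was not tested, so the fall rests on 1 probe set.

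Slc16a3, the lactate exporter of glycolytic cells, read 432.8 and 400.2 in control arrays, against 327.1 and 432.7 in knockdown arrays. The groups overlapped, with 1 knockdown array below both controls and the other between them. The difference was -0.14 log2 units (SE 0.19, adjusted p = 0.787), and its 95% interval of -0.55 to 0.27 does not reach the value fitted for Slc16a1. The sign turned without knockdown replicate 1 (0.05).

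Of the 2 carriers best known from muscle lactate transport, Slc16a1 was called and Slc16a3 was not, and the bases just upstream of their transcription starts are shown to set them side by side. RefSeq promoter entries (GRCm38.p6) were found for 4 of the 8 members. Each line below gives the 250 bases before the start on the plus strand, at chr3:104638414-104638663 for Slc16a1 and chr11:120948817-120949066 for Slc16a3. Capitals mark matches on either strand to ACGTG, the core of the hypoxia response element, and to GGGCGG, the GC box.
Slc16a1: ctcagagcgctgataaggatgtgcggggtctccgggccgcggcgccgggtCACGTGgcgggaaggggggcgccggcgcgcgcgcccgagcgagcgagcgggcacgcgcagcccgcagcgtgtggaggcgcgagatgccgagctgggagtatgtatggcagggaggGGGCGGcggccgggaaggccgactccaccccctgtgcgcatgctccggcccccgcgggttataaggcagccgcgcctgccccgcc
Slc16a3: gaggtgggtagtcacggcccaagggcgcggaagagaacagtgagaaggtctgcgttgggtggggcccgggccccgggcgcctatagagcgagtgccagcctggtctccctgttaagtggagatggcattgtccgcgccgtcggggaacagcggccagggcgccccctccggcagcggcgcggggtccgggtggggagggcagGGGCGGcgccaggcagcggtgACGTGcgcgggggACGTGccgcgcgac

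In the Slc16a1 window the ACGTG matches on the 2 strands overlap in 1 palindrome, CACGTG, the E-box form bound by MYC and MAX, which begins 200 bases before the start. A GC box begins 85 bases before it. The Slc16a3 window holds separate ACGTG matches that begin 27 and 14 bases before the start, a GC box at 48, and no CACGTG. Among the 250-base windows of all 32851 RefSeq promoter entries, 6.02% hold CACGTG, 16.6% ACGTG and 32.7% GGGCGG. These matches describe the letters only; no binding was measured.

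Slc16a13 (MCT13), a less studied member of the family, read 387.7 and 340.2 in control arrays, against 199.2 and 288.7 in knockdown arrays. Both knockdown arrays were below both controls, at 51.4% to 84.9% of them, and they differed from each other by 0.50 log2 units. The difference was -0.57 (SE 0.22, 95% interval -1.04 to -0.09), with an adjusted p of 0.230 in limma, so it was not called. Without knockdown replicate 2 it was -0.82 and without knockdown replicate 1 it was -0.32, so the value depends on which knockdown array is kept. Each of these fits holds a single knockdown array, so no test is read from it.

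Slc16a10 (TAT1), which carries aromatic amino acids and thyroid hormones rather than lactate, had 4 probe sets, of which 1436368 was tested. It read 206.9 and 273.1 in control arrays, against 247.9 and 231.9 in knockdown arrays, so that both knockdown values lay between the controls. The difference was 0.01 log2 units (SE 0.22, 95% interval -0.47 to 0.49, adjusted p = 0.991), and its sign turned without control replicate 1 (-0.18) or knockdown replicate 1 (-0.03). The other 3 probe sets of Slc16a10 were in the background range on all arrays, between 7.0 and 48.9.

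Slc16a6 and Slc16a7 could not be compared. Slc16a6 (MCT7), a ketone body carrier, read 21.4 and 15.4 in control arrays, against 50.2 and 78.0 in knockdown arrays, and only knockdown replicate 2 was above its array's background. Its mean level was under the limit for testing, and with every probe set tested its adjusted p was 0.329. Slc16a7 (MCT2), a carrier with high affinity for pyruvate, read 2.0 and 2.3 in control arrays, against 4.3 and 4.0 in knockdown arrays, far below background on every array.

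The chaperones had small positive differences. Bsg, the partner of Slc16a1 and Slc16a3, read 6937.5 and 7433.4 in control arrays, against 8295.8 and 9099.0 in knockdown arrays. Both knockdown arrays were above both controls, at 111.6% to 131.2% of them. The difference was 0.27 log2 units (SE 0.11, 95% interval 0.02 to 0.52, adjusted p = 0.274), which was not called.

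Emb, the preferred partner of Slc16a7, read 398.8 and 435.2 in control arrays, against 522.1 and 524.1 in knockdown arrays in probe set 1415856. In probe set 1415857 it read 454.7 and 481.6, then 545.5 and 578.4. The knockdown arrays were above the controls in both probe sets, by 0.32 (SE 0.16, adjusted p = 0.386) and 0.26 log2 units (SE 0.16, adjusted p = 0.481), and neither was called. These probe sets read the same RNA on the same arrays and are not replicates of each other. The other, 1447286, was in the background range on all arrays.

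**Figure D2:**
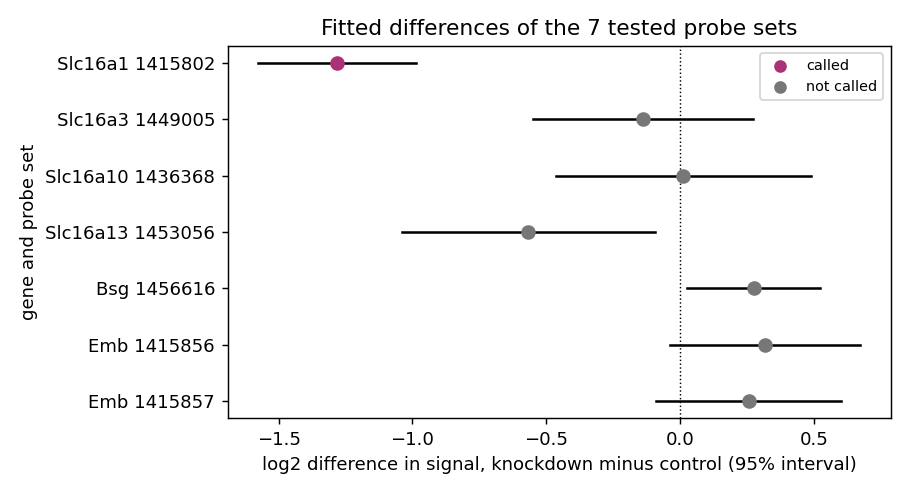
Each point is the fitted log2 difference in signal, knockdown minus control, of 1 of the 7 tested member probe sets (horizontal axis), with its 95% interval from limma as a line and the called probe set in purple. Slc16a1 lies at -1.28, and the intervals of the other 6 probe sets have their centres between -0.57 and 0.32.

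Ratios within an array do not depend on how the arrays were scaled, apart from the pseudocount, and were set out for Slc16a1 over each other tested member. Relative to Bsg, the log2 ratio of Slc16a1 differed by -1.56 (knockdown minus control), with a spread within groups of 0.08 (SD, n = 2) in the control and 0.03 in the knockdown. Relative to Slc16a3 the difference was -1.14 log2 units, and relative to Slc16a13 it was -0.72, the smallest of the 6. Relative to the probe sets of Emb it was -1.60 and -1.54, and relative to Slc16a10 it was -1.29. In all 6 ratios both knockdown arrays were below both control arrays. The ratios share the Slc16a1 values, so they are not separate observations, and they show unequal change between transcripts rather than which of them changed.

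**Figure D3:**
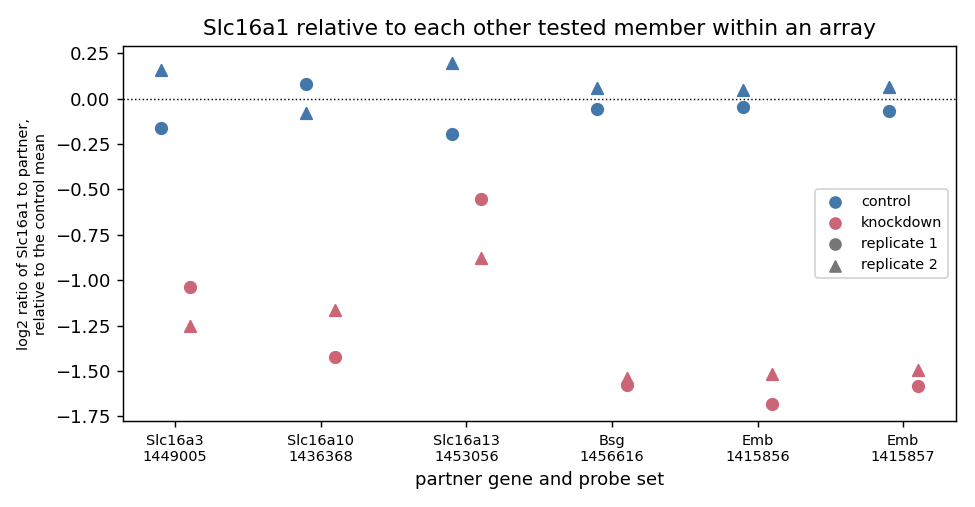
The vertical axis is the log2 ratio of Slc16a1 to the partner probe set named below each column, within 1 array, less the mean of the control arrays; blue is control, red is knockdown, circles are replicate 1 and triangles replicate 2. Every knockdown point lies below both control points of its column, from -0.55 for Slc16a13 in knockdown replicate 1 to -1.68 for Emb (1415856) in the same array.

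The log2 difference of Slc16a1 lay between -1.39 and -1.18 in all 14 alternative settings. Those that leave out 1 array keep a single array in 1 group, so only their effect size is read. With all 4 arrays the call held in every alternative but 1. The exception was limma with no trend of variance, which called 0 probe sets of any gene and gave Slc16a1 an adjusted p of 0.175. Bsg and both Emb probe sets were positive in every alternative in which they were tested. With all 4 arrays they were called in none, with limma adjusted p values from 0.0501 to 0.529 for Bsg.

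**Figure D4:**
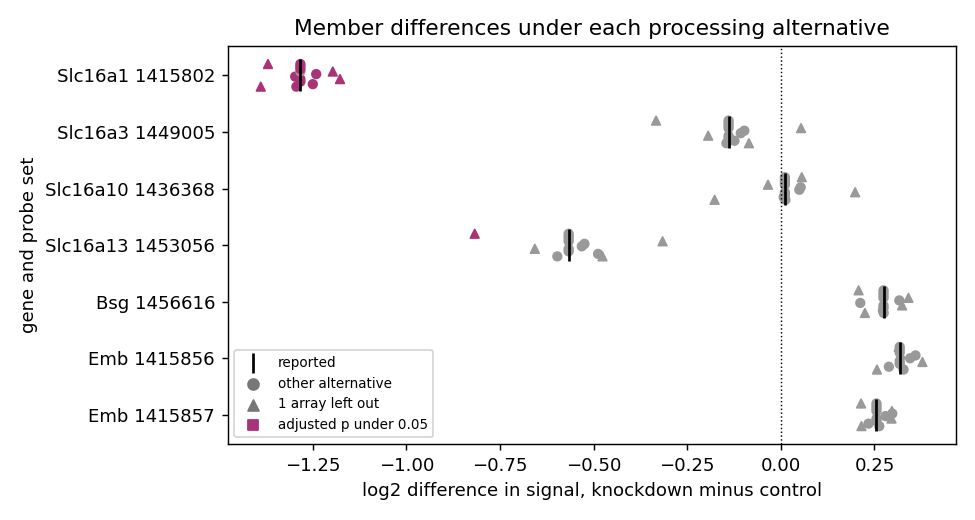
The log2 difference, knockdown minus control (horizontal axis), of each tested member probe set is plotted under every processing alternative, with triangles where 1 array was left out, circles for the other alternatives, a black bar for the reported value and purple for an adjusted p under 0.05. Slc16a1 stays between -1.39 and -1.18, with the point without the variance trend in grey, Slc16a13 spreads from -0.82 to -0.32, and Slc16a3 and Slc16a10 have points on both sides of 0. Triangles rest on a single array in 1 group, so their position is read and their colour is not.

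The transcripts whose pattern over the 4 arrays was closest to that of Slc16a1, by Euclidean distance of mean-centred log2 signals among tested probe sets of other genes, were those of Abl2, Armh3 and Ndrg4, at distances of 0.073, 0.076 and 0.077. Abl2, a non-receptor tyrosine kinase gene, read 369.6 and 450.5 in control arrays, against 152.2 and 163.2 in knockdown arrays. Ndrg4 read 6221.6 and 7175.7, then 2474.7 and 3010.4, and Armh3 121.4 and 132.9, then 41.0 and 47.4. The 41.0 of Armh3 lay under the background limit of knockdown replicate 1 (69.3). With 4 arrays in 2 groups, a close pattern mainly means a like difference between the groups. Abl2 and Ndrg4 were called (limma adjusted p = 0.0091 and 8.27e-04) and Armh3 was not (adjusted p = 0.132).

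The rest of the Slc16a family gave no call. Of 8 further family genes, 7 had a single-gene probe set and 4 (Slc16a4, Slc16a8, Slc16a9 and Slc16a11) had a tested one. None of their 5 tested probe sets was called (0 higher, 0 lower), beside 2.39% of all probe sets tested. Their median difference was -0.08. The one with the smallest p was in Slc16a4, an orphan carrier, at 119.7 and 154.4 in control arrays, against 111.4 and 104.5 in knockdown arrays (-0.30, SE 0.30, adjusted p = 0.698 in limma).

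Genes that work beside the transporters were mostly without a call. Together with the further family genes, the 7 lists of them held 77 tested probe sets, and 2 of these were called, both higher. Among all probe sets tested, 2.39% were called in either direction and 0.961% were called higher. The 2 called were in Ldhb, the lactate dehydrogenase subunit of oxidative tissue, and Arnt, the partner of HIF-1 alpha. The same shares stand beside the counts of each list below.

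Among enzymes of lactate and pyruvate 1 of 25 tested probe sets was higher and 0 were lower, with a median of -0.06. Ldhb probe set 1448237 read 182.3 and 183.7 in control arrays, against 347.1 and 373.1 in knockdown arrays, a difference of 0.92 log2 units (SE 0.20, adjusted p = 0.0359 in limma). The knockdown stood at 197% of the control there. Its other 3 tested probe sets differed by 0.84, 0.68 and 0.10 and were not called, so the probe sets of Ldhb disagree in size. The 0.10 was in probe set 1416183, whose groups overlapped (682.1 and 591.4, then 658.4 and 706.0). The 0.84 was in probe set 1434499, where control replicate 2 was in the background range (30.3). The list had 0 probe sets higher without the filter and without the variance trend. It also had 0 with 1 probe set per gene or without probe sets shared between transcripts, where probe set 1448237 was not among those tested. Ldha, the subunit that favours lactate production, read 17063.5 and 18992.3 in control arrays, against 21775.2 and 23316.2 in knockdown arrays (0.32, adjusted p = 0.188).

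Among the known regulators of these carriers 1 of 13 tested probe sets was higher and 0 were lower. Arnt probe set 1419996 read 246.4 and 222.3, then 466.7 and 390.0 (0.82, SE 0.19, adjusted p = 0.0476 in limma), while its other 3 tested probe sets lay between -0.09 and 0.06. With all arrays kept, the list had no probe set higher under several alternatives, in some of which that probe set was not among those tested. Myc, whose product is known to activate Slc16a1, read 907.1 and 1077.8 in control arrays, against 1089.2 and 1035.0 in knockdown arrays (0.10, adjusted p = 0.800), with overlapping groups.

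The remaining lists gave 0 calls in either direction. They were 8 tested probe sets of related membrane partners (median 0.29; smallest p in the carbonic anhydrase gene Car2, 0.63, adjusted p = 0.149), 10 of glucose entry (median -0.02; hexokinase gene Hk1, -0.56, adjusted p = 0.0563), 9 of ketone body enzymes (median -0.07; Oxct1, which encodes the enzyme that activates acetoacetate, -0.38, adjusted p = 0.290) and 7 of thyroid hormone and aromatic amino acid handling (median 0.14; the thyroid hormone receptor gene Thra, 0.58, adjusted p = 0.123). The value given for each gene is that of 1 probe set. Other tested probe sets of the same genes included Hk1 1437974 (-0.15) and Thra 1426997 (-0.15). Those of Oxct1 included 1449059 (-0.14), 1436750 (-0.07) and 1428140 (0.16). Mpc1, of the mitochondrial pyruvate carrier, differed by 0.35 (adjusted p = 0.273), and Nptn, a relative of basigin, by 0.02 in its brighter probe set (adjusted p = 0.968).

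**Figure D5:**
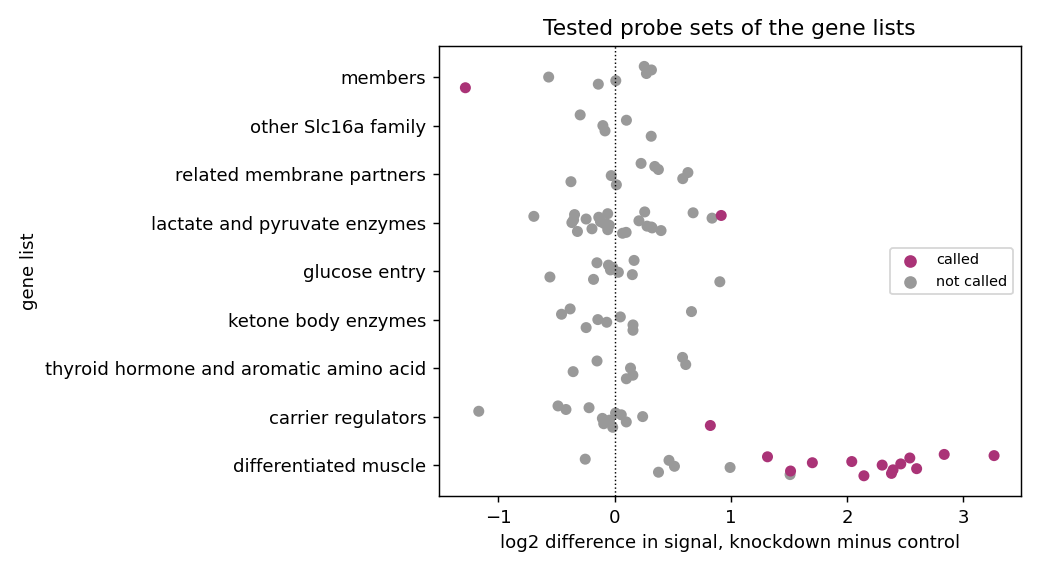
Each point is the fitted log2 difference, knockdown minus control (horizontal axis), of 1 tested probe set, grouped by gene list (vertical axis), with called probe sets in purple. Slc16a1 is the lowest point of the plot at -1.28, Ldhb (0.92) and Arnt (0.82) are the 2 called points of the metabolic and regulator lists, and 13 of 19 points of the differentiated muscle list are called, all to the right.

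Markers of differentiating muscle moved with the fall of Slc16a1. In the knockdown 13 of 19 tested probe sets were higher and 0 lower, in 12 genes: Myog, Mylpf, Actc1, Acta1, Myh3, Tnni1, Myl1, Tnnc2, Myh1, Mymk, Tnnt1 and Tnnt3. Of the 13, 2 were probe sets of Myh1 that lay in the background range on both control arrays (25.1 and 38.2, and 42 and 38.9) and passed the filter only through the knockdown arrays. Their folds are bounds, at least 4.77-fold higher for the first and at least 4.22-fold higher for the second. Leaving these out, a setting chosen after seeing the data, 11 of 17 were higher and 0 lower, in 11 genes, with a median difference of 1.70. The 11 still hold probe sets of Tnni1 and Tnnt1 with 1 control array in the background range (30.5 and 19.6). On the control arrays alone these would not have passed the filter, so the count and the median are not free of that selection. Their folds are bounds too, at least 9.48-fold for Tnni1 and 5.11-fold for Tnnt1. The summed signal of the list of 22 probe sets was 2786 to 3028 in the control and 11658 to 12049 in the knockdown. Without the filter on dim probe sets 6 were called, and without the variance trend 0. Their part in the difference of Slc16a1 was not tested, and in bulk RNA fewer cells of a type and less RNA per cell cannot be told apart.

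Probe sets for markers of other cell types were above background on all 4 arrays in 5 of 8 cases for leukocytes, 1 of 5 for endothelium, 2 of 7 for epithelium and 0 of 6 for adipocytes. Those above it throughout were in Csf1r, Cd68 and Adgre1 of the leukocyte list, Kdr of the endothelial list, and Epcam and Krt8 of the epithelial list, whose other probe sets were in the background range. In the background range on all 4 arrays were Ptprc and Cd3e, Pecam1, Cdh1, and Adipoq and Lep. Of the 26 probe sets of the 4 lists 10 were tested and 0 were called, beside 2.39% of all probe sets tested. The smallest p of each list was in Cd68 (-0.57, adjusted p = 0.423), Kdr (-0.42, adjusted p = 0.364), Epcam (0.66, adjusted p = 0.233) and Fabp4 (0.75, adjusted p = 0.382). The summed signals in the control and the knockdown were 1148 to 1163 and 968 to 1192 for leukocyte markers, 414 to 473 and 386 to 393 for endothelial, 621 to 1022 and 924 to 1164 for epithelial and 151 to 185 and 257 to 277 for adipocyte markers. Their part in the results above was not tested.

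Over all probe sets tested the knockdown had 220 higher and 328 lower, 2.39% in all. Higher ones made up 40.1% of the calls, and 54.6% when each array was centred on its median. Counts from fits without 1 array are not read as a result, since those fits keep a single array in 1 group.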

How the data were processed

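RNA from 4 C2C12 cultures, labelled from 100 ng each, was hybridised to 1 array per culture. The authors deposited linear intensity values per probe set; the submitters' processing notes name MAS5 and GCOS without versions. Any scaling between arrays is not stated in what was used here, and the values were taken as deposited. Because MAS5 signals of dim probe sets are noisy, a pseudocount of 16 and a filter were used. Groups come from the sample titles.

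Of 45101 probe sets 34945 had 1 gene in the array annotation, 932 several and 9160 none there, and 64 were controls; 34741 of the 34945 were named through the gene identifier in a RefSeq table of GRCm38.p6, and 0 symbols changed. The filter kept probe sets with a mean level of at least a signal of 57.3, in whatever group they were high, so 7 of the 14 member probe sets were tested. Tests used limma 3.58.1 (lmFit, and eBayes with a variance trend) in R 4.3.3, with 2 residual and 9.60 prior degrees of freedom, and were checked on simulated data.

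The members and the gene lists (82 genes, of which 75 had a single-gene probe set) were chosen with earlier results of these data known. Named genes are all members, Sfmbt1, the called genes of each list or otherwise its gene with the smallest p, and the 3 nearest patterns to the member with the smallest p; Ldha, Myc, Mpc1, Nptn and, from the marker lists, the genes named for being above or in the background range throughout were named after their values were seen. The 14 alternatives cover the pseudocount, filter, scaling, variance trend, 1 probe set per gene, shared probe sets, the replicate number as a block and each array left out. The main fit did not use the replicate numbers. Deviations of same-numbered arrays from their group means correlated at 0.0095 over 22893 probe sets. With 2 arrays per group this is a single correlation, so it cannot decide whether the numbers pair the arrays.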

Additional observations from a re-analysis of the deposited data

How the results depend on the processing

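Among the member probe sets, 92 of 97 values under the alternatives kept their direction and their side of the threshold. That count includes fits without 1 array, which keep a single array in 1 group and are read for effect size only. Slc16a1 lost its call without the variance trend (-1.28, adjusted p = 0.175), which left 0 members called. Leaving out 1 array gave -0.82 to -0.32 for Slc16a13, -0.33 to 0.0541 for Slc16a3 and -0.18 to 0.198 for Slc16a10. The cause was not tested.

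The counts over all probe sets moved further. Against 220 higher and 328 lower of 22893 tested, testing without the filter gave 22 and 41 of 34945. The upper 40% filter gave 359 and 591 of 16265, and 1 probe set per gene 207 lower of 12866, so these counts rest on other numbers of tests. Median centring gave 401 higher and limma without the variance trend 0 and 0 (2913 at an unadjusted p under 0.05). The replicate block, which rests on a shared number only, gave 379 higher, and Slc16a1 stayed lower under it (-1.28, adjusted p = 0.0011). Fits without 1 array keep a single array in 1 group, so the counts that follow are not read as a result. Leaving out 1 array gave 126 to 730 higher and 171 to 1040 lower.

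In the lists, enzymes of lactate and pyruvate had 0 higher without the filter, without the trend, with 1 probe set per gene and without shared probe sets, and 2 with median centring or the replicate block. The regulators had 0 higher in the same first 4 settings and with a pseudocount of 1, quantile normalization or median centring. Differentiated muscle had 6 higher without the filter and 0 without the trend. The upper 40% filter gave 1 higher in the thyroid hormone and aromatic amino acid list and 1 lower in glucose entry, as did the replicate block for the latter. List counts from fits without 1 array are not given. Signal over background limits Slc16a6, Slc16a7 and the dim probe sets of Slc16a1, Slc16a10 and Emb, which no setting made measurable.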
